A study of Schizosaccharomyces pombe with 2 samples.

Results

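The 129 probes described here are named for pNSU plasmids, and they make up 129 of the 41551 non-control probes on each of 2 Agilent arrays of the fission yeast Schizosaccharomyces pombe. They were chosen by name alone. Each name holds a clone, a probe number and a position in steps of 300 bp, so that the pNSU21 probe at 900 bp lies 900 bp into that clone. The names fall into 9 sets, of which 6 have at least 5 probes: pNSU71 (29 probes), pNSU21 (27), pNSU77 (24), pNSU65 (19), pNSU64 (14) and pNSU70 (9). The other sets are pNSU32 (3 probes), pNSU28 (2) and pNSU68 (2).

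BrdU-labelled DNA was compared in a sap1-1 cdc10-v50 culture and in a cdc10-v50 culture called wild-type, both of the same strain background and with 1 array each. Both strains carried a thymidine kinase module, Pnmt1-TK, and a nucleoside transporter module, Padh1-hENT, driven by the nmt1 and adh1 promoters, so neither takes up BrdU as an unmodified cell would. Both were held at 35 °C for 4 h, which arrests cdc10-v50 cells, and were returned to 26 °C in 10 mM hydroxyurea and 200 µM BrdU. Azide at 0.1% is also listed for both cultures. Immunoprecipitated DNA was read in Cy5 and whole-cell extract, the input, in Cy3. There was no replicate of either strain, so no difference between them could be tested, and strain, culture and array cannot be told apart.

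Plasmids of the pNSU name are known in fission yeast as clones of DNA from the chromosome ends. Such ends carry arrays of telomere-associated sequence next to the telomere, much of it shared between ends, and the ends of chromosome III carry the ribosomal DNA. Hydroxyurea depletes deoxynucleotides, so that replication, and with it BrdU uptake, stays close to active origins. Sap1 is an essential DNA-binding protein that is known to bind the rDNA and to stop replication forks there. The deposited files give no sequence and no chromosome position for any pNSU probe, so no clone is placed on the genome here.

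BrdU signal was high over most of the clones in both strains as centred here, though less so after loess within each array. The measure was the log2 ratio of processed Cy5 over processed Cy3 intensity, centred on the median of all probes of an array, so that 1 means 2-fold above the median of that array. In sap1-1, 95 of the 129 probes reached at least 1, against 23.3% of all probes on that array. In wild-type, 94 of 129 did so, against 24.7% of all probes. After loess, which removes the trend of the ratio with brightness, 73 of 129 reached 1 in sap1-1 (22.3% of all probes) and 40 of 129 in wild-type (21.7% of all probes). The median ratio of the 129 probes was 2.50 in sap1-1 and 2.08 in wild-type. The sets were not alike, since all 27 probes of pNSU21 reached this level on either array, but only 9 of 29 probes of pNSU71 in sap1-1 and 8 of 29 in wild-type.

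The input signal of most of the clones was also high. Centred in the same way, log2 Cy3 was at least 1 for 97 of 129 probes in sap1-1 (17.2% of all probes) and for 93 of 129 in wild-type (18% of all probes). Over pNSU21, pNSU64, pNSU65 and pNSU70 together (69 probes), the median input was 3.91 times the array median in sap1-1 and 4.09 times in wild-type. The 60 usable probes of the multi-copy mitochondrial genome stood at 14.4 times in sap1-1 and 16.5 times in wild-type. Probes differ in how well they hybridise, with an SD of log2 input over single chromosome tiles of 1.20 in sap1-1 and 1.22 in wild-type, so these values are not copy numbers. All 129 probes were well above background in both dyes on both arrays, and none was saturated or left out.

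In the sets pNSU21, pNSU64, pNSU65 and pNSU70, ratios were high over almost the whole length and were a little higher in sap1-1 with the arrays centred on their medians, but not with the arrays centred on the most common ratio (the mode). Their medians were 2.67, 2.76, 2.62 and 2.62 in sap1-1, against 2.15, 2.32, 2.22 and 2.17 in wild-type. After loess these medians were 1.36, 1.36, 1.20 and 1.36 in sap1-1, against 0.76, 0.91, 0.79 and 0.77 in wild-type, so in wild-type they lay under 2-fold. Median differences (sap1-1 minus wild-type) were 0.41, 0.42, 0.35 and 0.46, with SDs over probes of 0.20, 0.19, 0.18 and 0.17. Over the 69 probes the median difference was 0.39, and 67 of 69 were above 0, where 44.3% of all probes were. No probe of these sets reached a difference of 1 in either direction.

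The size of this shift must be read against its errors. The scanner software gives each spot an error of its log ratio. The errors of both arrays combined had a median of 0.42 over the 69 probes and 0.32 over all probes. A bar of 2 combined errors was thus higher for most of the 69 than for a typical probe. None of the 69 differed by more than 2 combined errors, where 18.7% of all probes were higher and 27.1% lower by that much. The sign of the median also rests on where the arrays are centred, since it was -0.15 with both arrays centred on the mode. It was 0.28 when Cy5 was set against the mean input of both arrays.

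pNSU21 had the most evenly spaced probes, 27 at every 300 bp from 0 to 7800 bp. Its first probe, at 0 bp, had a ratio of 1.95 in sap1-1 and 1.70 in wild-type. The highest ratio of the set in sap1-1 was at 900 bp, with 3.65 in sap1-1 and 2.98 in wild-type. The processed intensities behind it were 50965 (Cy5) and 4127 (Cy3) in sap1-1, and 38453 and 5462 in wild-type. The probe at 1800 bp differed most, by 0.70, with 3.48 in sap1-1 and 2.79 in wild-type. The lowest ratio on either array lay at 4500 bp, with 1.92 in sap1-1 and 1.54 in wild-type, still above 2-fold.

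The far end of pNSU21 held the lowest differences of the set. At 7500 bp the ratio was 3.07 in sap1-1 and 3.20 in wild-type, the highest of the set in wild-type and the lowest difference, -0.14. At the last position, 7800 bp, it was 3.18 in sap1-1 and 3.14 in wild-type. The combined scanner errors at these positions, 0.49 and 0.50, exceeded the differences with the arrays centred on their medians. With the arrays centred on the mode the differences were -0.67 and -0.50. They lay below the median difference of the set, an order that the centring cannot change, as it moves all probes alike. Input was also dimmer towards this end. It was highest at 600 bp, 3.25 in sap1-1 and 3.34 in wild-type, and stood at 0.91 and 0.53 at 7800 bp. Its Spearman correlation with position in wild-type was -0.54, a description over 27 probes of 1 clone. The lowest input, at 4800 bp, was -0.23 in sap1-1 and 0.10 in wild-type, beside ratios of 2.80 and 2.40.

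The sets pNSU64 and pNSU65 began with a probe unlike the rest of the clone. At 0 bp of pNSU64 the ratio was 0.55 in sap1-1 and 0.53 in wild-type, with the highest input of the set, 4.51 and 4.50. At 0 bp of pNSU65 it was 0.72 in sap1-1 and 0.68 in wild-type, again with the highest input, 4.79 and 4.60. The first probe of the small set pNSU28 gave nearly the same, 0.69 in sap1-1 and 0.68 in wild-type, with an input of 4.94 and 4.72. These 3 probes had brighter input than any probe of pNSU21 and differed by 0.04 or less between the strains, or by -0.53 to -0.50 with the arrays centred on the mode.

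Past its first probe, pNSU64 stayed between 2.41 and 3.77 in sap1-1 and between 1.99 and 3.12 in wild-type. Both highest values were at 2100 bp, where Cy5 reached 63178 in sap1-1, the brightest of all 129 probes on that array, and 50756 in wild-type. The largest difference, 0.71, was at 900 bp (3.06 in sap1-1 and 2.35 in wild-type). The last probe, at 5700 bp, had 2.62 in sap1-1 and 2.39 in wild-type. The probe at 3600 bp had the lowest input in sap1-1 (1.03, with 1.00 in wild-type), and the probe at 4800 bp the lowest in wild-type (1.23 in sap1-1 and 0.93 in wild-type).

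In pNSU65 the highest ratio in sap1-1, 3.29, was at 900 bp, with 2.92 in wild-type. The highest in wild-type was at the last position, 7500 bp, where sap1-1 had 3.28 and the difference was 0.17. That last probe also had the dimmest input of the set, -1.53 in sap1-1 and -1.70 in wild-type, or 317 and 326 in processed Cy3 intensity. The largest difference was at 3000 bp, 0.67 (2.62 in sap1-1 and 1.94 in wild-type). The only probe of pNSU65 below 0 was at 5700 bp, where the ratio was 2.31 in sap1-1 and 2.35 in wild-type.

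pNSU70 had 9 probes between 0 and 6600 bp. Its first probe carried no enrichment, with a ratio of -0.23 in sap1-1 and -0.33 in wild-type and an input of 2.44 and 2.15. The other 8 lay between 2.25 and 2.86 in sap1-1 and between 1.93 and 2.45 in wild-type. The highest in sap1-1 was at 5400 bp (2.86, with 2.30 in wild-type), and the highest in wild-type at 2100 bp (2.62 in sap1-1 and 2.45 in wild-type), which also had the highest input, 3.04 in sap1-1 and 3.28 in wild-type. The largest difference was at 2400 bp, 0.59 (2.53 in sap1-1 and 1.93 in wild-type). The last probe, at 6600 bp, had 2.83 in sap1-1 and 2.35 in wild-type with an input of -0.46 on both arrays, so high ratios occurred at bright and dim input alike.

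These clones were set beside the chromosome tiles nearest the ends. Tiles in the outer 100 kb of chromosomes I and II (1234 tiles) had a median difference of -0.94, and only 79 of them (6.40%) were above 0. In the outer 5 kb (64 tiles) the median ratio was 1.16 in sap1-1 and 1.99 in wild-type, and the median difference was -0.82, with 1 of 64 tiles above 0. The 4 clone sets and these outermost tiles thus stood at 2.63 and 1.16 in sap1-1, further apart than in wild-type, where they stood at 2.22 and 1.99.

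The median difference of the 4 sets exceeded that of the outer 100 kb by 1.33, that of the outer 20 kb by 1.15 and that of the outer 5 kb by 1.21. This contrast does not depend on the centring, and over all alternatives it ran from 1.10 with loess within each array to 1.39. Split by distance into 0 to 5, 5 to 10, 10 to 20, 20 to 50 and 50 to 100 kb, the 4 ends of chromosomes I and II gave 20 bins. All 20 had a median difference below 0, from -1.26 to -0.40. Input moved with this contrast. Its median difference was -0.08 in the 4 sets (29 of 69 probes above 0) and 0.19 in the outer 5 kb (58 of 64 tiles above 0), and its part in the contrast was not tested. In Cy5 alone the median difference was 0.27 in the 4 sets and -0.56 in the outer 5 kb. Since the tiles stop where the array design stops, how far the clones lie from the last tile is not known here.

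With the arrays centred on their medians, pNSU77 was divided into stretches that differed in opposite directions. The 11 probes from 1200 to 4800 bp were all lower in sap1-1, by a median of -0.92 (from -1.38 to -0.54). Of the 13 probes from 5100 to 12000 bp, 12 were higher, with a median of 0.49 (from -0.02 to 0.70), which became -0.051 with the arrays centred on the mode. The division was drawn after the values had been seen. It falls where the letter in the probe names changes from f to m, between the probe at 4800 bp (2.33 in sap1-1 and 3.27 in wild-type) and the next, at 5100 bp (2.29 in sap1-1 and 2.06 in wild-type). The letter does not mark the stretches throughout, since the probes at 7200, 7500 and 7800 bp in the second stretch carry f and had ratios of 2.64, 2.58 and 2.27 in sap1-1, against 2.02, 2.03 and 2.13 in wild-type.

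The first stretch of pNSU77 had the brightest input of all the clones. Its median was 4.59 in sap1-1 and 4.48 in wild-type, or 24.1 and 22.2 times the array median. The first probe, at 1200 bp, had a ratio of -1.43 in sap1-1 and -0.05 in wild-type, and its difference, -1.38, was the largest in pNSU77. The lowest ratio on both arrays was at 1500 bp, -2.43 in sap1-1 and -1.60 in wild-type. The brightest input in wild-type was at 1800 bp, 5.24 in sap1-1 and 5.17 in wild-type. From 1200 to 3600 bp all ratios were below the median of their array in both strains, and lower in sap1-1. Centring on the mode raises wild-type ratios, and those at 1200 and 3600 bp (-0.05 and -0.21 with the median) would then lie above the mode.

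Ratios stayed low from 1500 to 3000 bp of the first stretch and then climbed towards the division. They were -2.17 in sap1-1 and -1.09 in wild-type at 2400 bp, and -2.22 and -1.11 at 3000 bp. At 3300 bp they were -1.66 in sap1-1 and -0.51 in wild-type. At 4200 bp they had reached 0.03 in sap1-1 and 0.78 in wild-type, and at 4500 bp 1.98 and 2.52. Input was 4.59 in sap1-1 and 4.06 in wild-type at 3300 bp, and lower, 2.77 and 2.01, at 4500 bp. It was also 2.88 and 2.90 at 3000 bp, where ratios were low, and its part in the climb was not tested. Through a change of more than 4 log2 units, the difference between the strains stayed between -1.38 and -0.54. (Some of these probes were named after their values were seen, to show the climb.)

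Tiles in the outer 10 kb of chromosome III were set beside this stretch, as the reference lists 4 rRNA genes within 20 kb of either end. Over these 42 tiles the median ratio was 0.26 in sap1-1 and 1.11 in wild-type, the median difference -0.96, and all 42 were lower in sap1-1. Their median input was 4.35 in sap1-1 and 3.83 in wild-type. Input moved with the strain in both, higher in sap1-1 by a median of 0.16 over the first stretch of pNSU77 and by 0.34 over these tiles, and its part in the lower ratios was not tested. In Cy5 alone, with each array centred on its median, the first stretch of pNSU77 had a median difference of -0.78. Relative to the outer 100 kb and outer 5 kb of chromosomes I and II, its median ratio difference was 0.02 and -0.10. It was thus near that of those ends as well.

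The second stretch of pNSU77 was like the 4 high sets, with a median ratio of 2.58 in sap1-1 and 2.06 in wild-type and an input of 1.79 and 1.56. The largest difference was at 6000 bp, 0.70, with ratios of 3.41 in sap1-1 and 2.71 in wild-type. At 7200 bp the ratio was 2.64 in sap1-1 and 2.02 in wild-type with the lowest input of the set in sap1-1 (0.03, with 0.34 in wild-type). The lowest input in wild-type was at 7800 bp (0.26 in sap1-1 and 0.20 in wild-type), beside ratios of 2.27 and 2.13. The last probe, at 12000 bp, had the highest ratio of the set on both arrays, 3.46 in sap1-1 and 3.49 in wild-type. Its difference was -0.02, and -0.56 with the arrays centred on the mode, with a combined scanner error of 0.53. It lay below the median of the stretch, as at the far end of pNSU21.

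pNSU71, the longest clone, changed character more than once along its 14400 bp, and its stretches were also marked off after the values had been seen. Its first probe, at 0 bp, was like that of pNSU70, with a ratio of -0.21 in sap1-1 and -0.31 in wild-type and an input of 2.99 and 2.67. The next 7 probes, from 1800 to 5400 bp, were like the high sets. They ranged from 2.61 to 3.19 in sap1-1 and from 2.32 to 2.61 in wild-type. All 8 probes of this first stretch were higher in sap1-1, by a median of 0.42, which became -0.12 with the arrays centred on the mode. The highest ratio in sap1-1 was at 3000 bp (3.19, with 2.59 in wild-type), the highest in wild-type at 3900 bp (2.99 in sap1-1 and 2.61 in wild-type), and the brightest input in wild-type at 1800 bp (2.89 in sap1-1 and 3.27 in wild-type).

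From 6000 to 8700 bp, 10 consecutive probes of pNSU71 had low and even ratios in wild-type but widely scattered ones in sap1-1. In wild-type they lay between -0.69 and 0.04, with an SD over probes of 0.25. In sap1-1 they lay between -3.36 and 1.11, with an SD of 1.63. At 6000 and 6300 bp the ratios were -3.36 and -2.98 in sap1-1, against -0.60 and -0.48 in wild-type. The Cy5 intensities at these 2 positions were 85.8 and 94.2 in sap1-1, against 452 and 456 in wild-type, while Cy3 was 896 and 759 in sap1-1 and 771 and 713 in wild-type. The low ratios in sap1-1 thus lay in the immunoprecipitated channel.

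Further along this second stretch the sign of the difference changed and changed back. At 6600 bp, named here to complete the run, the ratio was -0.30 in sap1-1 and 0.04 in wild-type, and at 6900 bp it was -2.10 and -0.47. At 7500 and 7800 bp it was 0.66 and 1.11 in sap1-1, against -0.69 and -0.16 in wild-type, the only probes of all 129 that were higher in sap1-1 by at least 1. At 8400 and 8700 bp it was -2.66 and -2.40 in sap1-1, against -0.19 and 0.01 in wild-type. Both signs were therefore found within this stretch, and the median of the stretch, -1.12, describes none of its probes well. With the probes of high scanner error left out, 6 remained and their median was 0.09, and the 4 removed were those at 6000, 6300, 8400 and 8700 bp.

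The scatter of this stretch was set beside that of other probes. Over neighbouring chromosome tiles 300 bp apart, the SD of the step in ratio was 1.02 in sap1-1 and 0.60 in wild-type. Over the 9 steps of this stretch it was 1.73 in sap1-1 and 0.35 in wild-type. In pNSU21, pNSU64, pNSU65 and pNSU70 (50 steps) it was 0.56 in sap1-1 and 0.54 in wild-type, so on the high clones the arrays were about equally rough. The outer 5 kb of chromosomes I and II (58 steps) gave 0.54 on both arrays, but their outer 100 kb (1186 steps) 0.94 in sap1-1 and 0.52 in wild-type. Chromosome tiles with the letter m in their name (212 steps) gave 0.44 in sap1-1 and 0.45 in wild-type. Those with the letter f (689 steps), which all probes of this stretch carry, gave 0.71 in sap1-1 and 0.50 in wild-type.

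The rest of pNSU71 stayed below the first stretch in both strains. Probes at 10200 and 11400 bp had ratios of 1.06 and 0.94 in sap1-1, against 0.49 and 0.68 in wild-type. From 12000 to 13500 bp input was bright again, with a median of 1.63 in sap1-1 and 1.72 in wild-type, but ratios had medians of -0.93 in sap1-1 and -0.67 in wild-type. The lowest ratio of the whole set in wild-type was at 12300 bp (-0.95 in sap1-1 and -1.12 in wild-type). High input did not go with high BrdU here, and the difference of this stretch, a median of -0.06, had either sign over its 6 probes. The last 3 probes, from 13800 to 14400 bp, were lower in sap1-1, with differences of -0.95 to -0.40. Their ratios were -0.04, 0.51 and 0.57 in sap1-1, against 0.82, 1.46 and 0.97 in wild-type.

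The small sets fell on both sides. The 3 probes of pNSU32, at 0, 300 and 600 bp, had ratios of 2.90, 2.50 and 2.92 in sap1-1, against 2.53, 2.08 and 2.39 in wild-type, and were like the high sets. The second probe of pNSU28, at 300 bp, had 2.19 in sap1-1 and 1.93 in wild-type. The pNSU68 probes went the other way. At 0 bp of pNSU68 the ratio was 1.36 in sap1-1 and 2.54 in wild-type, with an input of 4.26 and 3.49, and at 300 bp it was -0.15 and 0.81, with an input of 0.68 and 0.65. These differences, -1.17 and -0.96, are near those of the first stretch of pNSU77.

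Differences of at least 2-fold lay in 3 sets with the arrays centred on their medians. Of the 129 probes 10 were lower in sap1-1 by at least 1, where 17.1% of all probes were, and 2 were higher by that much, where 10.2% of all probes were. Of the 10, 5 lay in the second stretch of pNSU71, 4 in the first stretch of pNSU77 and 1 in pNSU68. Both higher probes were in pNSU71. Centred on the mode, 23 probes were lower by at least 1 (34.8% of all probes) and 0 higher (3.58% of all probes). By more than 2 combined scanner errors, 21 of the 129 probes were lower (27.1% of all probes) and 2 higher (18.7% of all probes). Of the 21, 10 lay in the first stretch of pNSU77, 9 in pNSU71 and 2 in pNSU68.

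pNSU71 and pNSU77 thus held stretches of more than 1 kind, and the letters in the probe names partly followed them. All 129 names end in m or f, with or without a preceding R. No source used here gives the meaning of these letters. Among chromosome tiles, 1.06% carry m and 2.60% carry f. Chromosome tiles with m had a median input of 2.34 in sap1-1 and 2.07 in wild-type, and those with f 0.88 and 0.87, so both marked tiles of bright input. Of the 88 pNSU probes with m, pNSU21 held 26, pNSU65 19 and pNSU64 12, while 21 of the 29 probes of pNSU71 and 14 of the 24 of pNSU77 carried f. Chromosome tiles with m had a median difference of -0.23, with 109 of 436 above 0, beside -0.12 over all chromosome tiles. Those with f had a median difference of -0.50, with 200 of 1072 above 0. Input was higher in sap1-1 by a median of 0.14 for tiles with m and 0.05 for tiles with f. In Cy5 alone the median difference was -0.04 with m and -0.44 with f, beside -0.14 over all chromosome tiles.

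The clones were also set beside the mating-type and mitochondrial probes of the same arrays. The 110 mat probes, from the heterochromatic mating-type region, had a median ratio of 2.18 in sap1-1 and 2.72 in wild-type, and 10 of them were above 0 in difference. The 60 mitochondrial probes had 1.20 in sap1-1 and 0.49 in wild-type. With the arrays centred on their medians, all 60 were higher in sap1-1, where 44.3% of all probes were, by a median of 0.63. Centring on the mode lowers every difference alike. The lowest of the 60, 0.27, would then fall below 0, while their median would stay above 0. Across the 69 probes of the 4 sets the arrays had a Pearson correlation of 0.95, and across all chromosome tiles 0.74, as a description over probes that share a clone or a library.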

How the data were processed

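The labels give Cy5 as immunoprecipitated DNA and Cy3 as input. Spots were quantified with Agilent Feature Extraction 10.7.3.1, which removed a spatially fitted background and multiplied either dye by a single factor, per the file headers. The processed spot values used here are linear intensity values as deposited. The deposited log10 ratio of Cy5 over Cy3 equalled the recomputed one to within 3.91e-07. Its deposited error, from the software's error model, is also on the log10 scale and was converted to log2. Spots marked as outliers on either array (12, none of them pNSU) were left out, leaving 41539 probes. Log2 ratios and log2 Cy3 were centred on the median of each array, with no loess or quantile step. Medians over probes are given with the SD or range over probes, which are no replicates. Alternatives used limma 3.58.1 (R 4.3.3). The script was tested on simulated data. Named probes are the first, last, highest and lowest of each set, those differing by at least 1, and all of small sets. The probes, lists and comparisons were chosen with earlier results of these data known. The number of arrays limits the precision.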

Additional observations from a re-analysis of the deposited data

How the results depend on the processing

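In all, 931 values were recomputed over 28 settings for 80 results. Of these, 860 moved by less than the SD over probes (counts by up to 1.5 times), 54 moved further and 17 were counted as changed in sign. Values close to 0 that changed sign but moved by less than the SD are among the 860, not the 17. The difference of pNSU77, 0.058 with the median and -0.48 with the mode, is an example. The mode minus the median was 0.10 in sap1-1 and -0.44 in wild-type, so centring on the mode lowers ratios in sap1-1 and raises them in wild-type. Centring on the mode was the setting with the most changes of sign. The differences became -0.19 for all 129 probes (0.35 with the median), -0.15 for pNSU21, pNSU64, pNSU65 and pNSU70 together, and -0.13, -0.11, -0.18 and -0.083 for these sets in turn, -0.43 for pNSU71, -0.12 for its first stretch and -0.051 for the second stretch of pNSU77. The 12000 to 13500 bp (C) and 13800 to 14400 bp (D) stretches of pNSU71 moved to -0.60 and -1.39, and the first stretch of pNSU77 to -1.46. In wild-type the second stretch of pNSU71, C and D had ratios of 0.13, -0.23 and 1.40, and D an input of -1.04. Counts past 2-fold became 23 lower and 0 higher. The whole of pNSU71 and of pNSU77 had no stable sign. Each joined stretches of both signs with the arrays centred on their medians. With the mode, both stretches of pNSU77 were below 0, as were the first and second stretches, C and D of pNSU71. The part of this joining in the unstable sign was not tested. pNSU71 gave -0.28 as a mean, -0.12 with Cy5 over the mean input, -0.27 over probes without R and -0.060 without probes of high scanner error. pNSU77 gave -0.75 over probes without R and -0.83 without probes of high scanner error. With Cy5 over the mean input pNSU64 gave 0.23. Loess within arrays lowered bright probes. Ratios were then 1.36, 1.36, 1.20 and 1.36 in sap1-1 and 0.76, 0.91, 0.79 and 0.77 in wild-type for pNSU21, pNSU64, pNSU65 and pNSU70, 1.74 in sap1-1 and 0.98 in wild-type for the first stretch of pNSU71, and 1.62 and 0.91 for the second of pNSU77. It gave 0.90 in sap1-1 for D, and in wild-type 0.11 for the second stretch of pNSU71, -1.52 for C and -2.21 for the first stretch of pNSU77, whose difference was -0.69. Only 40 probes then reached 2-fold in wild-type, and the contrast of the 4 sets with the chromosome ends was 1.10. Normexp, run on median spot signals as the files hold no mean ones, gave D an input of -1.53 in sap1-1 and -1.33 in wild-type and a ratio of 0.96 in sap1-1, and uncorrected median signals gave it an input of -0.99 in wild-type. Without probes of extreme input 5 probes were lower past 2-fold. Probes of high scanner error are mostly those of high ratio, and without them 49 of 129 remained (too few for a value in pNSU64, pNSU70 and the first stretch of pNSU71), with 5 lower past 2-fold and 20 (sap1-1) and 19 (wild-type) enriched. The second stretch of pNSU71 then had a difference of 0.088, pNSU21 a ratio of 2.13 in sap1-1, and pNSU77 -1.24 in sap1-1 and -0.13 in wild-type. At 1.5-fold 21 probes were lower and 18 higher, and at 3-fold 5 and 0, with no share of all probes computed at these thresholds. Probes with and without R were set apart after seeing the data. The 62 with R gave 4 lower and 1 higher past 2-fold and 45 enriched in either strain, a difference of 0.22 for the second stretch of pNSU77 and an input difference of -0.41 for the first of pNSU71. The 67 without R gave 6 lower and 1 higher, 50 (sap1-1) and 49 (wild-type) enriched, and an input difference of 0.052 for pNSU21. The causes of these shifts were not tested. For the counts with and without R, and those without probes of extreme input or high scanner error, no share of all probes was computed either. No paired analysis was possible because each strain had 1 array, and for the same reason no array could be left out.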

Other observations

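The letter R in the probe names divided the input signal of the high clone sets. Over pNSU21, pNSU64, pNSU65 and pNSU70, the 33 probes with R had a median log2 input of 2.05 in sap1-1 and 2.51 in wild-type, and the 36 without R 1.63 and 1.52. Input was lower in sap1-1 for 30 of the 33 with R (median difference -0.30) and higher for 26 of the 36 without R (median difference 0.16). In pNSU21 all 13 probes with R were lower in sap1-1. Chromosome tiles showed no such division, with medians of -0.01 for 20609 tiles with R and -0.01 for 20631 without. Among chromosome tiles with m, input was higher in sap1-1 by 0.15 for those with R and by 0.12 for those without.

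Cy5 divided in the same direction, with median differences of 0.02 for probes with R and 0.54 for probes without R in the 4 sets, so the ratio differed less, by 0.32 with R and 0.45 without. All 36 probes without R were higher in sap1-1 in Cy5, and 19 of the 33 with R. In the first stretch of pNSU77, input was higher in sap1-1 for 3 of 4 probes with R and 6 of 7 without. What sets probes with R apart was not tested.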
